A study of Mus musculus with 15 samples.

Results

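The MHC class II presentation genes described here are 8 genes taken by name for their role in antigen presentation: H2-Ab1, H2-Aa, H2-Eb1, Cd74, Ciita, H2-DMa, H2-DMb1 and Ctss, out of 19512 annotated genes that took up an assembled transcript in at least 1 library. Their RNA was read from 15 mouse RNA-seq libraries, with 3 healthy brains, 3 untreated GL261 tumors and 9 GL261 tumors from treated mice. Treated mice received B20.4.1.1, an antibody against VEGF-A, in doses of 50, 100 or 200 µg (3 libraries a dose). GL261 is an established mouse glioma line, the strain given for all samples was C57BL/6, and no genotype, sex or age was given. The first dose was on day 10 and a further dose followed every 3 days. Mice were perfused with PBS and the tissue was frozen whole, so a tumor library holds RNA of tumor cells and of host cells. The design text calls the 3 samples of a group individual, and p-values set differences between groups against the spread between such samples.

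MHC class II molecules show peptides from the endocytic pathway to CD4+ T cells. Their chains are made together under the coactivator encoded by Ciita, which interferon-gamma induces in many cells and which acts through factors bound to conserved X and Y boxes in class II promoters. The invariant chain Cd74 fills the peptide groove during transport, the protease cathepsin S (Ctss) trims it, and the H2-DM dimer exchanges its last fragment for a peptide. In brain tissue, class II is known mainly from activated microglia, infiltrating macrophages and dendritic cells.

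The tumor libraries differed in ways beyond dose. Depth, estimated from the width of the deposited confidence bounds, was 16.7 to 59.7 M fragments in brain and 19.3 to 35.7 M in tumors. A gene listed as 2 or more stretches that no transcript joins is said to be in pieces. This applied to 7.15 to 8.75% of genes in 4 tumor libraries, all 3 at 200 µg and replicate 3 at 100 µg, and to 15.7 to 31.9% in the other 8. The agent tag disagreed with the title, which set the groups, or was absent in 4 libraries, replicate 3 of untreated tumors and of each dose. The antibody binds a protein, so no transcript checked the dose labels.

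Promoter sequences are shown because the class II genes share the X and Y boxes through which Ciita acts. RefSeq promoter windows (build GRCm38.p6, 250 bases before to 50 after a start) were matched by symbol for 5 of the 8 genes, H2-Aa, H2-Eb1, H2-DMa, H2-DMb1 and Ctss. The motifs searched on both strands were GATTGG for the Y box, ACNGATG for the end of the X box and, for an interferon-type element, GAAA repeated after any 2 bases, and none of the matches shown overlap. The 150 bases before the start are printed 5′ to 3′ on the gene's own strand, with motif matches in capitals.
H2-Eb1 (chr17:34305717-34305866, plus strand): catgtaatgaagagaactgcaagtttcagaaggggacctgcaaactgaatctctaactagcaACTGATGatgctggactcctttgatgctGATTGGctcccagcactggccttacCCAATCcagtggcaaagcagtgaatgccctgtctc
H2-DMb1 (chr17:34153041-34153190, plus strand): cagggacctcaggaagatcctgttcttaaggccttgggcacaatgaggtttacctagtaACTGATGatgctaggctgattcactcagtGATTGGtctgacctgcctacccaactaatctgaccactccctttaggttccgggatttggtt
H2-Aa (chr17:34287824-34287973, minus strand): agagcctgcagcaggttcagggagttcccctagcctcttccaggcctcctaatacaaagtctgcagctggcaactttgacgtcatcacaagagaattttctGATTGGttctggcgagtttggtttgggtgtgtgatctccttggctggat
Ctss (chr3:95526636-95526785, plus strand): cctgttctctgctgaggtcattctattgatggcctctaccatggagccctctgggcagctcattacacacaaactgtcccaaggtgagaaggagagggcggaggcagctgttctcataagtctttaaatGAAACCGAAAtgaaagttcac

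In H2-Eb1 the X box letters began at -88 and the Y box letters at -60 from the start, and in H2-DMb1 at -91 and -62, with the same 7 bases ACTGATG in both. H2-Eb1 held a further Y box match on the opposite strand at -35. H2-Aa held the Y box at -49, while its X box match lay on the opposite strand at -232, outside the stretch shown. Ctss held the interferon-type element at -21 and an X box match at -206, and no Y box letters. Of H2-DMa's 2 windows, 1 held a Y box match, at -199. The RefSeq starts of these windows follow positions 34122831 and 34125517, inside the GENCODE span of H2-DMa (34119541 to 34139101). The H2-DMb1 stretch, up to 34153190, likewise runs past the GENCODE start of that gene at 34153072. The bases before the GENCODE start of H2-DMa were not searched. Among all 32851 promoter windows, 16.1% held the Y box letters, 9.85% the X box letters, 1.52% both, and 3.44% the interferon-type letters. A match describes the letters only.

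The untreated tumors were set against healthy brain first. All 8 class II genes were called higher in tumor, at a Benjamini-Hochberg adjusted p under 0.05 by limma over 14834 genes, and in each gene the 3 tumor libraries lay above the 3 brain libraries. The background is large: 33.9% of all genes tested were called higher, 62.4% in either direction, and 38.1% lay higher without overlap. The main scaling called 5034 genes higher and 4226 lower, and median-of-ratios scaling 4186 and 4892, with the median of all genes moved from 0.16 to -0.07; the 8 genes were called higher under both. The median log2 fold change of the 8 genes was 5.75, against 0.16 over all genes tested. Values are FPKM, fragments per kilobase of transcript scaled to the mapped fragments of the library, and fold changes are on the log2(FPKM + 1) scale, where changes of genes at low levels come out too small. In bulk tissue, fewer cells of a type and less RNA per cell cannot be told apart.

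Among the chains of the class II molecules, H2-Ab1, the beta chain of the A molecule (chromosome 17, 34257689 to 34269419, mm10), was at 1.23, 1.91 and 1.20 FPKM in the brain libraries, and the untreated tumors read 370.3, 163 and 521 FPKM. The lowest tumor was far above the highest brain, with 7.03 as the log2 fold change (SE 0.43, limma adjusted p = 3.04e-05). H2-Aa, the alpha chain of the same molecule (chromosome 17, 34282744 to 34287823), was listed at 0, 0 and 1.00 FPKM in brain and at 228, 72.9 and 215 FPKM in tumors, with 6.93 as the log2 fold change (SE 0.52, limma adjusted p = 6.27e-05). H2-Eb1, the beta chain of the E molecule (chromosome 17, 34305867 to 34316674), rose from 1.37, 1.38 and 1.39 FPKM to 208, 107 and 271 FPKM, a log2 fold change of 6.27 (SE 0.34). In all 3 genes, and in Cd74, Ciita, H2-DMa, H2-DMb1 and Ctss, replicate 2 was the lowest of the untreated tumors.

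C57BL/6 mice carry a haplotype that is known to make no E alpha chain. The E alpha pseudogene H2-Ea-ps was listed at 0 in 14 of 15 libraries and at 2.24 FPKM in replicate 3 at 50 µg. The ratio of H2-Eb1 RNA to H2-Aa RNA lay between 0.844 and 1.47 in all 12 tumor libraries on the main values. From a plain sum of FPKM it lay between 1.02 and 2.01.

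Cd74, on chromosome 18, was the most abundant of the 8 in untreated tumors on this per-length scale. It rose from 2.88, 2.91 and 3.03 FPKM in brain to 413, 219 and 582 FPKM in tumors, with 6.58 as the log2 fold change (SE 0.35, limma adjusted p = 1.97e-05). Cd74 has a 9-exon form and a form of 8 exons that lacks an exon of 192 bases. Transcripts with that exon were listed only in replicate 3 of healthy brain, at 0.885 FPKM, and all Cd74 transcripts listed in the 12 tumor libraries lacked it. Replicate 3 of brain was also the deepest library. A form that Cufflinks did not assemble is listed nowhere, so this describes the assemblies and not an absence of the form.

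Ciita (chromosome 16, 10480059 to 10528418) stood at 0.0098, 0.139 and 0.171 FPKM in brain, whereas untreated tumors had 2.95, 2.10 and 3.84 FPKM. The groups did not overlap, and the log2 fold change was 1.82 (SE 0.21, adjusted p = 0.000365 by limma). Ciita starts from several first exons, known to differ in use between cell types: that of Ciita-203 in the GENCODE annotation (10489781 to 10489864) belongs to the promoter known for its response to interferon-gamma. Spliced transcripts that began with this exon were listed in 9 of 12 tumor libraries, at a summed 28.4 FPKM. The first exon of Ciita-205 (10480059 to 10480426) was used in 2 libraries, untreated replicate 1 and 200 µg replicate 1, and that of Ciita-201 (10488279 to 10488424) in 1, replicate 3 at 100 µg. Transcripts beginning at none of the 3 exons summed to 21.5 FPKM over 9 libraries. No brain library listed a spliced transcript with any of the 3. Of the Ciita signal over all libraries, 42.9% came from transcripts joined to the neighboring gene Dexi, so its value is less certain than those of the chains.

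The peptide exchange genes moved unequally. H2-DMb1 (chromosome 17, 34153072 to 34160230) was at 0, 1.57 and 1.03 FPKM in brain and at 62.3, 47.6 and 90.6 FPKM in untreated tumors, a log2 fold change of 5.24 (SE 0.41). H2-DMa, its partner chain (chromosome 17, 34119541 to 34139101), was at 4.54, 4.88 and 2.06 FPKM in brain and at 19.7, 12.2 and 27.5 FPKM in tumors, with 2.10 as the log2 fold change (SE 0.38, limma adjusted p = 0.00303). H2-DMa was joined to its neighbor Brd2 in replicate 3 of brain and in replicates 2 and 3 at 100 µg. H2-DMb1 shares 27.2% of its 50-base stretches with the paralog H2-DMb2, so their reads could be split between them, and none of the other 7 genes shared such a stretch with another gene. Ctss, the protease (chromosome 3, 95526786 to 95556403), was the only one of the 8 above 30 FPKM in brain, at 32.9, 35.7 and 34.0 FPKM, and was at 190.2, 82.7 and 175 FPKM in untreated tumors, a log2 fold change of 2.01 (SE 0.33).

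**Figure D1:**
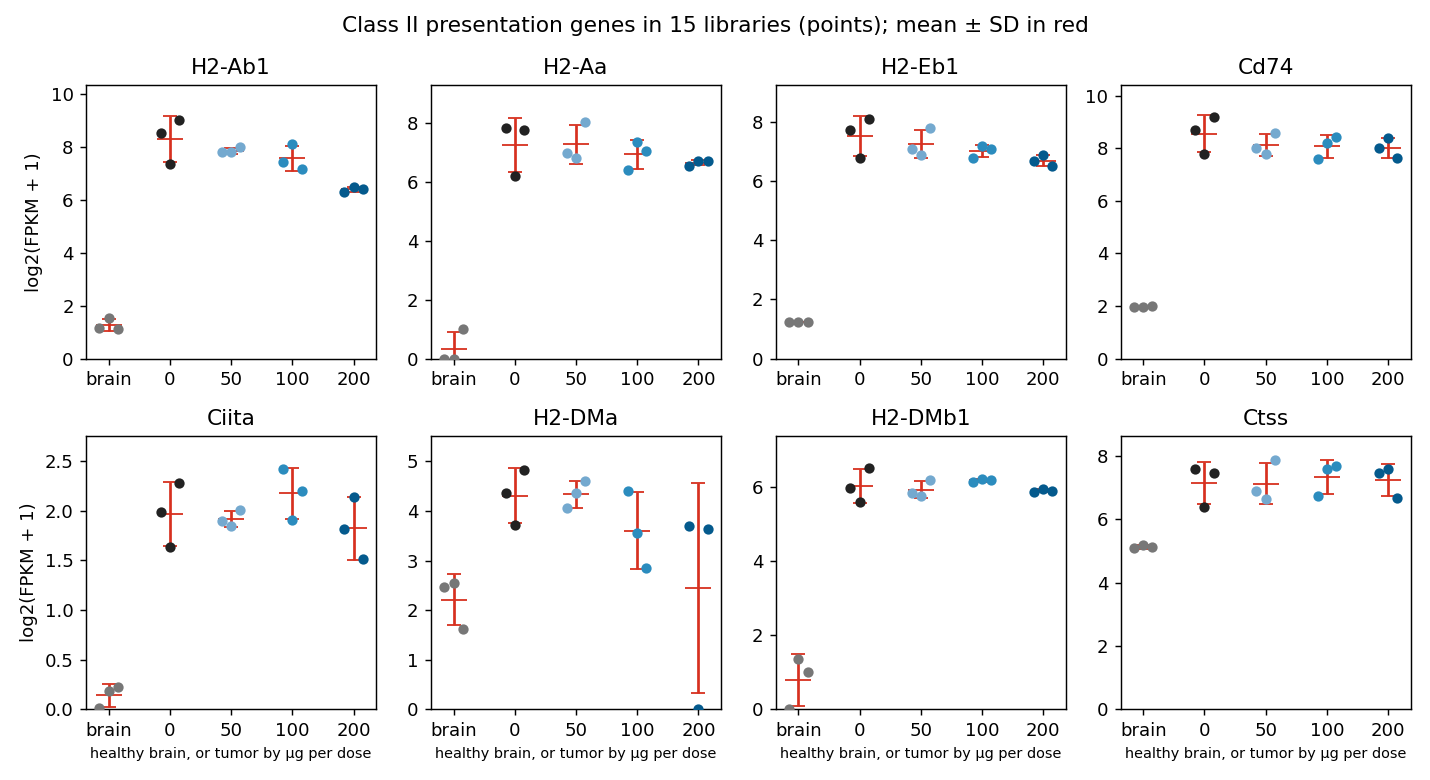
Level of each class II gene as log2(FPKM + 1) in every library, for healthy brain and for tumors at 0, 50, 100 and 200 µg per dose; points are libraries and red marks the mean ± SD (n = 3). All tumor libraries lie above all brain libraries except for H2-DMa, whose 200 µg replicate 2 is listed at 0, and the 200 µg points of H2-Ab1 (76.7 to 88.5 FPKM) lie below every other tumor library.

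Genes around the class II machinery, from lists chosen by role, are given beside the background of this comparison, 33.9% of all genes called higher and 62.4% in either direction. Of 8 tested genes of interferon-gamma input, 6 were called higher and 1 lower, with a median log2 fold change of 1.92 against 0.16 over all genes. Irf1, a transcription factor induced by interferon-gamma, rose from 1.82 ± 0.632 to 46.1 ± 13.8 FPKM (SD, n = 3; log2 fold change 4.05). Socs1 (3.64), a feedback inhibitor, and Irf8 (2.73), a myeloid transcription factor, rose as well. Ifng itself was not tested and was listed at 0 in all brain and untreated tumor libraries. Of 7 factors that bind class II promoters, 3 were called higher, a share near that background: Rfxank (1.86), Nfya (0.86) and Rfx5 (0.62).

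Of 9 lysosomal processing genes, 6 were called higher and 1 lower. Over all genes tested, 33.9% were called higher and 62.4% in either direction. Those called higher included the cathepsins Ctsh (2.95) and Ctsz (1.88) and the thiol reductase Ifi30 (2.78). The 1 called lower was the protease inhibitor Cst3 (-2.30), which brain expresses at 1003 FPKM on average. H2-Eb2, a relative of H2-Eb1, was listed at 0 in all brain libraries and at 3.48, 2.65 and 4.40 FPKM in untreated tumors, and H2-DMb2 was also called higher (1.03). The ubiquitin ligase March1, which removes class II from the surface, was called lower (-1.39), as was the co-stimulation gene Cd83 (-1.16).

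Markers of other cells moved in the same comparison. All 9 tested of 10 monocyte and macrophage markers were called higher, their summed level going from 5.91 to 8.82 FPKM in brain to 82.7 to 233 FPKM in untreated tumors, and 5 of 10 pan-myeloid markers were called higher, against 33.9% of all genes. Of 10 microglia markers 3 were called higher and 6 lower. Markers of resident brain cells were lower: all 5 neuron markers (median log2 fold change -6.93), all 4 astrocyte markers (-3.86) and 3 of 4 oligodendrocyte markers were called lower. Of 3 tested T and NK cell markers, 2 were called higher, and the other was at -1.577 and not called. The T and NK cell list summed to 0.642 to 11.1 FPKM in brain, with a median of 2.42 FPKM. In untreated tumors its median sum was 10.4 FPKM and its highest 11.1 FPKM, so the ranges met. The 6 B cell markers summed to 9.51 to 15.6 FPKM in brain and 1.25 to 4.33 FPKM in untreated tumors, where 4 of them were above 0. Ms4a1 of that list was at 0 in every tumor library, while Pax5 was at 0, 0 and 0.158 FPKM in brain and at 1.59, 1.25 and 1.75 FPKM in untreated tumors. Of 3 tested dendritic cell markers, 1 was called higher (2.795) and 1 lower (-0.84). Of the 8 dendritic cell markers, Flt3 and Cd209a were at 0 in every tumor library. Flt3 was at 2.28, 1.43 and 2.22 FPKM in brain. The dendritic cell list summed to 3.16 to 7.37 FPKM in brain and 7.87 to 16.5 FPKM in untreated tumors. The part of these cells in the rise of the class II genes was not tested. Against the mean of the 10 pan-myeloid markers in the same library, H2-Ab1 lay at -1.56 ± 0.117 in brain and at 4.37 ± 0.349 in untreated tumors (log2 units, SD, n = 3), and Cd74 at -0.863 ± 0.122 and 4.62 ± 0.192. Ctss lay above the pan-myeloid mean in both, at 2.29 ± 0.0616 and 3.21 ± 0.348.

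**Figure D2:**
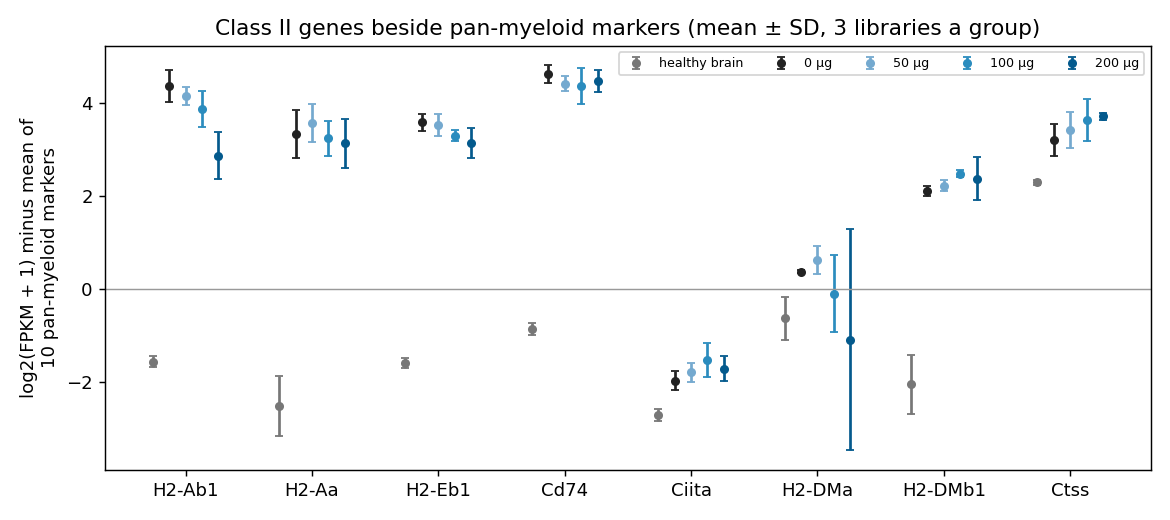
Each class II gene as log2(FPKM + 1) minus the mean of 10 pan-myeloid markers in the same library (mean ± SD, 3 libraries a group). Chains and Cd74 lie below 0 in brain and above 0 in all tumor groups, H2-Ab1 is at 2.86 ± 0.505 at 200 µg against 4.37 ± 0.349 in untreated tumors, and Ctss is above 0 in every group.

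Each antibody dose was then set against untreated tumor. At 50 µg none of the 8 class II genes was called, among 13379 genes tested of which 0% were called by limma and 3.97% had an unadjusted p under 0.05, as did 0 of the 8. At 100 µg again none was called, against 0.0822% of all genes, and 0 of the 8 had an unadjusted p under 0.05, against 9.22%. At 200 µg H2-Ab1 alone was called lower, 1 of 8 against 0.957% of all genes called lower and 3.27% in either direction, and 3 of 8 (H2-Ab1, H2-Eb1 and H2-DMa) had an unadjusted p under 0.05, against 23.8%. The comparisons share the 3 untreated libraries. The 8 genes had a median log2 fold change of -0.08, -0.41 and -0.57 with rising dose, against -0.07, -0.01 and 0.04 over all genes tested.

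For H2-Ab1 the 50 µg libraries read 221, 221 and 254 FPKM, the 100 µg libraries 171, 272 and 144 FPKM, and the 200 µg libraries 76.7, 88.5 and 84.3 FPKM. The 200 µg libraries were below all 9 other tumor libraries, and the lowest of those was replicate 3 at 100 µg. The log2 fold change from untreated tumors was -0.45 (SE 0.37, adjusted p = 0.9), -0.74 (SE 0.37, adjusted p = 0.611) and -1.91 (SE 0.37, adjusted p = 0.0271), all by limma. Between doses none of the 8 genes was called. At 200 against 50 µg, where 1.39% of all genes were called and 9.10% lay lower without overlap, H2-Ab1 was at -1.47 (adjusted p = 0.0713 by limma), and it, H2-Aa and H2-DMa did not overlap. At 200 against 100 µg, where 0.0598% were called and 5.92% lay lower without overlap, H2-Ab1 was at -1.17 (adjusted p = 0.55 by limma), and it and H2-DMb1 did not overlap. At 100 against 50 µg limma called 0% of all genes, with 9.54% at an unadjusted p under 0.05 and none of the 8 among them. The linear trend was -0.95 per 100 µg (SE 0.17, adjusted p = 0.00885 by limma), where 8.60% of all genes were called and 2.82% were called lower. No other of the 8 genes passed the trend test.

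The call at 200 µg rested on few libraries and on how they were grouped. With groups taken from the agent tag, the log2 fold change was -0.79 (adjusted p = 0.533 by limma). That grouping counted 200 µg replicate 3, which carries no agent tag, as an untreated tumor, so its value does not come from the tags alone. Without the 4 libraries whose tag disagrees or is absent, the log2 fold change was -1.56 (adjusted p = 0.0724 by limma). With a covariate that marks the 4 libraries low in genes in pieces, it was -1.33 (SE 0.67, adjusted p = 0.479), and that covariate and the dose can be separated only through 100 µg, since all 200 µg libraries are among the 4. The call was also lost without untreated replicate 1 (adjusted p = 0.0833) or 3 (0.0945), or without 200 µg replicate 1 (0.105), 2 (0.0871) or 3 (0.0544), in limma fits. In each of these the value stayed between -1.96 and -1.55.

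The other chains did not pass the test at any dose. For H2-Aa the 50 µg libraries read 127, 111 and 259.7 FPKM, the 100 µg libraries 84.4, 165 and 131 FPKM, and the 200 µg libraries 92.6, 105.0 and 103 FPKM. These ranges overlapped the untreated range, and at 200 µg the log2 fold change was -0.61 (95% interval -1.61 to 0.39, adjusted p = 0.432 by limma). H2-Eb1 was at 101, 115 and 88.7 FPKM at 200 µg, overlapping the untreated range only through replicate 2 of the untreated tumors at 107 FPKM. Its log2 fold change was -0.84 (95% interval -1.58 to -0.10, adjusted p = 0.164), and its trend was -0.42 per 100 µg (adjusted p = 0.0972 by limma).

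Cd74 was at 259, 334 and 199 FPKM at 200 µg, within or near the untreated range of 219 to 582 FPKM, with a log2 fold change of -0.54 (95% interval -1.36 to 0.29, adjusted p = 0.399 by limma). Ciita was at 2.51, 3.40 and 1.85 FPKM at 200 µg, with a log2 fold change of -0.14 (95% interval -0.64 to 0.35). Its highest mean of the tumor groups was at 100 µg, 3.56 ± 0.800 FPKM (SD, n = 3). Ciita transcripts joined to Dexi were listed in 6 tumor libraries, unequally between doses. These were untreated replicate 1, replicates 1, 2 and 3 at 100 µg, and replicates 1 and 2 at 200 µg. H2-DMb1 varied least at 200 µg, at 57.9, 60.7 and 58.3 FPKM, with a log2 fold change of -0.13 (95% interval -0.62 to 0.36). Ctss was at 176, 192 and 100.5 FPKM at 200 µg, with a log2 fold change of 0.10 (95% interval -0.85 to 1.05). The intervals of Cd74 and Ctss include the value of H2-Eb1.

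H2-DMa was at 12.04, 0 and 11.4 FPKM at 200 µg, and its groups did not overlap with the untreated tumors, as in 17.3% of all genes on the lower side. The 0 in replicate 2 is a gene listed nowhere in that library, although H2-DMb1 was at 60.7 FPKM there, and it can be a failed assembly. The log2 fold change was -1.86 with it (adjusted p = 0.205 by limma). Leaving out each tumor library in turn moved it between -2.49 and -0.64, and the adjusted p stayed at 0.155 or above.

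**Figure D3:**
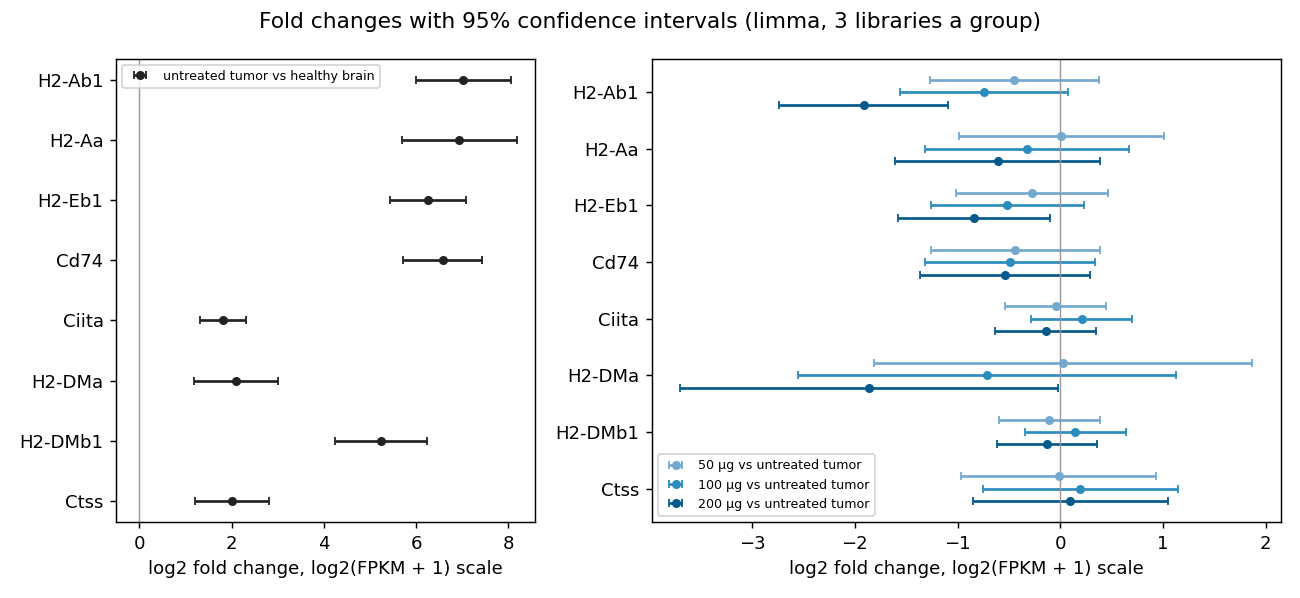
Log2 fold changes of the 8 genes with 95% confidence intervals from limma, for untreated tumor against healthy brain (left) and for each dose against untreated tumor (right). All intervals on the left lie above 0, and on the right those of H2-Ab1 (-2.74 to -1.09), H2-Eb1 and H2-DMa at 200 µg lie below 0, of which only H2-Ab1 passed the adjusted threshold.

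H2-Ab1 and H2-Aa encode the chains of 1 molecule, so their ratio within a library was taken. The pair was chosen because H2-Ab1 was called at 200 µg and H2-Aa was not, so the ratio is given as a description and no p-value for it is reported. Untreated tumors had ratios of 1.62, 2.23 and 2.43, the 50 µg libraries 1.75, 1.99 and 0.977, the 100 µg libraries 2.02, 1.65 and 1.10, and the last group 0.828, 0.843 and 0.817. Grouped by title, every 200 µg library was below every other tumor library. Replicate 3 at 200 µg, which has the lowest ratio, carries no agent tag, and replicate 3 at 100 µg is tagged 200 µg, so the tags would not separate the ratios in this way. All 3 of the 200 µg libraries are also among the libraries low in genes in pieces, as is replicate 3 at 100 µg, at 1.10. Pearson's r of the log2 ratio with dose was -0.804 over the 12 tumor libraries. Without the libraries low in genes in pieces it was -0.24 over 8 libraries, none of them at 200 µg.

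From a plain sum of FPKM the ratio was 1.62 to 2.48 in untreated tumors and 0.802 to 0.856 at 200 µg. The ratio of H2-Eb1 to H2-Aa was 0.913 to 1.47 in untreated tumors and 0.859 to 1.10 at 200 µg, and these ranges overlapped.

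**Figure D4:**
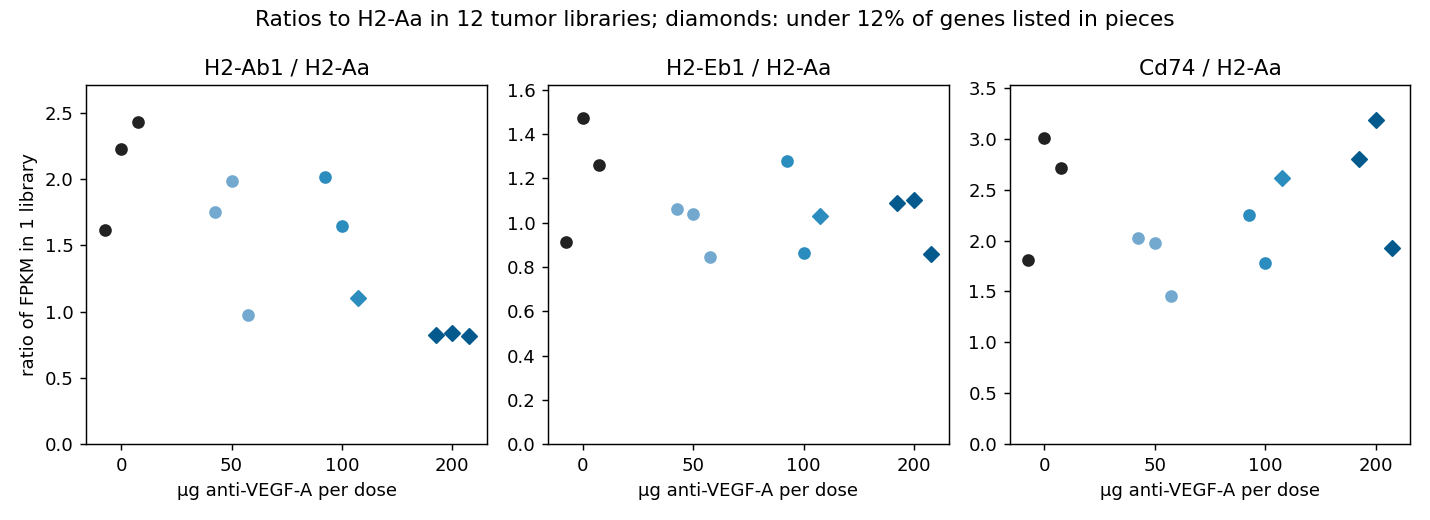
Ratio of H2-Ab1, H2-Eb1 and Cd74 to H2-Aa in each of 12 tumor libraries, by µg of antibody per dose; diamonds are the 4 libraries with few genes in pieces. The H2-Ab1 ratio is 0.817 to 0.843 in the 200 µg libraries and 0.977 to 2.43 in the other 9, while the other 2 ratios overlap between doses.

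Of the myeloid markers tested at 200 µg, 2 were called: Tmem119 of microglia was lower (-3.92) and Zbtb46 of dendritic cells higher (0.74). Zbtb46 read 2.4, 1.73 and 1.58 FPKM in brain and 0.688, 0.745 and 0.428 FPKM in untreated tumors. At 200 µg Zbtb46 read 1.88, 1.91 and 1.35 FPKM, within or near its brain range. Tmem119 was the 1 called of 7 tested microglia markers, of which 5 were below 0 and 2 above, with a median of -0.72. It read 13.6, 12.6 and 8.44 FPKM in brain and 52.8, 94.0 and 162 FPKM in untreated tumors. In that comparison, 3 of 10 microglia markers were called higher in tumor and 6 lower. The dendritic cell markers did not share a direction: Batf3 was at -0.76 (adjusted p = 0.561 by limma), and Xcr1, not tested because no listed transcript shared an intron with it, was at 4.14, 3.36 and 4.13 FPKM in untreated tumors and at 0.437, 0 and 0.397 FPKM at 200 µg. The pan-myeloid list summed to 128 to 304 FPKM in untreated tumors and to 87.5 to 170.0 FPKM at 200 µg, with 0 of 10 called and a median log2 fold change of -0.44. The monocyte and macrophage list summed to 82.7 to 233 and 216 to 299 FPKM, with 0 of 10 called. Beside the pan-myeloid mean, H2-Ab1 went from 4.37 ± 0.349 in untreated tumors to 2.86 ± 0.505 at 200 µg, while Cd74 was at 4.62 ± 0.192 and 4.48 ± 0.237, H2-Aa at 3.33 ± 0.524 and 3.13 ± 0.521, and Ctss at 3.21 ± 0.348 and 3.71 ± 0.0674 (log2 units, SD, n = 3). The part of myeloid cell content in the H2-Ab1 value was not tested.

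Of the class II pathway lists at 200 µg, Creb1, a factor of the class II promoter complex, was called higher, from 4.50 ± 0.400 to 8.20 ± 1.06 FPKM (SD, n = 3), with 0.74 as the log2 fold change (SE 0.17, limma adjusted p = 0.0437), 1 of 7 promoter factors, where 3.27% of all genes were called. By limma, 0 of 8 tested interferon-gamma genes, 0 of 9 lysosomal genes, 0 of 2 turnover genes, 0 of 3 co-stimulation genes and 0 of 2 other class II genes were called. Socs1 read 11, 14 and 21.3 FPKM in untreated tumors against 5.67, 7.68 and 7.25 FPKM at 200 µg, a log2 fold change of -1.03 (adjusted p = 0.102 by limma), and replicate 3 at 100 µg was at 7.09 FPKM. The other 7 tested genes of that list had values above 0, with a list median of 0.19. Ifngr1, a chain of the interferon-gamma receptor, read 16.4, 15.8 and 14 FPKM in untreated tumors against 25.1, 25.7 and 21.4 FPKM at 200 µg (0.61, adjusted p = 0.125 by limma). Ifng was listed at 0.866 and 1.17 FPKM in 2 of the 200 µg libraries and at 0 in the other. It was likewise at 1.09, 1.21 and 0 FPKM at 100 µg, and at 0 in all 50 µg libraries. Sppl2a, a membrane protease that degrades what is left of Cd74, was at 14.8 FPKM on average in untreated tumors and 32.2 FPKM at 200 µg (adjusted p = 0.0513), and its trend of 0.57 per 100 µg was called (adjusted p = 0.0199 by limma), as was that of Creb1 (0.34, adjusted p = 0.0242), where 8.60% of all genes were called.

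Over the 12 tumor libraries, most of the 8 genes varied together. Each gene's log2(FPKM + 1) was set against the mean of the other 7 as z-scores, as a description over libraries that share depth and processing. Pearson's r was 0.938 for H2-Eb1 (rho = 0.93), 0.854 for H2-Aa (rho = 0.839) and 0.815 for Cd74 (rho = 0.699), but 0.468 for Ciita and 0.216 for H2-DMa. Over deviations from group means, which remove dose, it was 0.979 for H2-Eb1, 0.924 for H2-DMb1, 0.782 for H2-Ab1 and -0.042 for H2-DMa. Within groups Cd74 and H2-Eb1 were the closest pair (r = 0.944).

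The search for genes that followed the mean of the 8 genes covered 6353 others. These averaged 1 FPKM or more in tumors, had a value in every tumor library and overlapped no exon of another gene. Under 5% of their signal came from transcripts joined to another gene. Closest in level were Cmklr1, the chemerin receptor (r = 0.926), Mmp14, a membrane-bound metalloprotease (0.903), and Cxcl9, an interferon-gamma induced chemokine (0.89). Next came Sema4a (0.886) and Fcer1g, a signaling chain of Fc receptors (0.875). Over deviations from group means the closest were Cd300c2 (0.943), Myo1f (0.94), Gm29284 (0.938), Mmp14 (0.933) and Sema4a (0.93), again over 12 libraries.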

How the data were processed

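STAR, Cufflinks and mm10 are named in the submitters' processing notes; neither versions nor settings were given in the sources used here. Deposited values are FPKM, given by the authors for each transcript that Cufflinks assembled. Each library was assembled by itself, and the transcripts name no gene and lie on either strand, so strand was ignored and overlapping genes cannot be told apart. Transcripts were placed on GENCODE M21 genes (exons of basic transcripts), and a gene's value was the sum of FPKM times the share of its exonic length covered, a rule kept from earlier work on these data after results were known, with the plain FPKM sum as an alternative. Single-exon transcripts under 200 bases were set aside. Genes that shared an intron with a listed transcript in some library (single-exon genes: 50% covered by one) and averaged 1 FPKM or more in a fit were tested with limma 3.58.1 (R 4.3.3) on log2(FPKM + 1), with Benjamini-Hochberg adjustment over all genes tested. The 12 tumor libraries shared 1 fit, and brain and untreated tumor another. In data simulated from these libraries, log2 changes of 1 and 3 were called in 37 and 89% of genes for 200 µg and in 32 and 78% for tumor against brain. Only 100 genes were changed at each size, out of 13379 and 14834. In the deposited data 62.4% of genes were called for tumor against brain, so the simulated shares do not give the recovery there. Replicate numbers did not pair samples, with a median correlation of same-numbered deviations of 0.0281 over 18 tumor pairs. The lists and the rule for naming genes (list genes called, at most 4 a list, otherwise the 2 with the largest change, and the closest genes by correlation) were, like the genes, chosen with earlier results of these data known. Xcr1, Pax5 and Batf3 were named after their values were seen. Some genes of the lists are not reported here. Alternatives are given in the closing section.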

Additional observations from a re-analysis of the deposited data

How the results depend on the processing

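All 8 genes were called higher in untreated tumor than in healthy brain under each alternative that tested them. These were pseudocounts of 0.1 and 5, no filter, a mean of 5 FPKM (7 genes, without Ciita, which fell under it), median-of-ratios and quantile scaling, a plain FPKM sum, limma with trend and robust, the replicate block, the libraries whose agent tag disagrees left out, and each library left out. Of the 8 genes, the number called at 200 µg against untreated tumors went from 1 to 0 with the plain FPKM sum, with the replicate block, with groups by agent tag, with the term for few genes in pieces and without the libraries whose tag disagrees. It ranged from 0 to 1 when 1 library was left out. Grouping by agent tag counted 200 µg replicate 3, which has no tag, as an untreated tumor in every comparison of tumors. The H2-Ab1 adjusted p by limma was 0.0706 with the plain sum and 0.0507 with the replicate block (log2 fold change -1.91, no change in value), and over all alternatives other than leaving out 1 library it was 0.0157 to 0.533. The number called in the trend went from 1 to 0 with groups by agent tag, with the term for few pieces and without the disagreeing libraries (adjusted p = 0.398, 0.382 and 0.0613 by limma), and ranged from 1 to 2 when 1 library was left out, H2-Eb1 passing without untreated replicate 2 (adjusted p = 0.0417). At 200 against 50 µg it ranged from 0 to 1, H2-Ab1 passing without untreated replicate 2 or 100 µg replicate 3. The cause of these changes was not tested. Leaving out replicate 3 at 50 and 100 µg together, added after seeing the data, kept the call at 200 µg (adjusted p = 0.0157). The replicate block changed no other call of the 8 genes. Over all genes, the count called at 200 µg (437) was 53 with the plain sum, 284 with the block, 7 by agent tag, 37 with the term for few pieces, 920 without the disagreeing libraries, 2304 with both replicates 3 left out and 35 to 1203 with 1 library left out; that of the trend (1150) was 268, 3 and 0 for the plain sum, the agent tag and the few-pieces term, 711 without the disagreeing libraries, 2093 with both replicates 3 left out and, with 1 library left out, from 176 (200 µg replicate 1) to 1914 (50 µg replicate 3). Depth is an estimate, and with 3 libraries a group a log2 change of 1 was often missed in data simulated with few changed genes.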
